A study of Mus musculus with 8 samples.

Results

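The transcripts of 10 amino acid transporters were followed in mouse embryonic fibroblast (MEF) cells exposed to RHPS4, a small molecule that binds and stabilizes G-quadruplex (G4) structures in nucleic acids. The 10 genes are plasma membrane amino acid carriers and the heavy chain that several of them share. They were taken by name from the 24460 genes counted in each library and were chosen by a rule that used their normalized counts at 0, 2 and 10 µM. Their own values are therefore given as a description and without p-values. All 10 passed the filter on low counts.

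The cells were wild type MEFs grown in DMEM with glucose, glutamine, pyruvate and serum, in which subconfluent cultures received 0, 2 or 10 µM RHPS4. The 0 µM group had 3 libraries, the 2 µM group 3 and the 10 µM group 2. RNA-Seq was used to ask how cellular transcripts respond to a low and a high dose of the compound. The labels' protocol gives more than 1 exposure time and does not say which one these libraries had, and neither it nor the labels say whether replicates were separate cultures. The p-values given for other genes then measure only the spread between these libraries, which may be technical.

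Amino acids cross the plasma membrane through families of carriers that differ in substrate and in what drives them. Slc7a11 (xCT) is the light chain of an exchanger that brings in cystine, from which cells make cysteine and glutathione, and releases glutamate. Slc7a5 (LAT1) is the light chain of an exchanger of leucine and other large neutral amino acids. Both light chains reach the membrane bound to the same heavy chain, the glycoprotein Slc3a2 (4F2hc, CD98). Slc7a1 (CAT1) and Slc7a3 (CAT3) carry the cationic amino acids arginine, lysine and ornithine without a heavy chain. Slc1a4 (ASCT1) and Slc1a5 (ASCT2) exchange small neutral amino acids such as serine, alanine and, for Slc1a5, glutamine. Slc38a2 (SNAT2) takes up glutamine, alanine and other neutral amino acids together with sodium, Slc6a9 (GLYT1) takes up glycine with sodium and chloride, and Slc43a1 (LAT3) lets branched-chain amino acids and phenylalanine pass by facilitated diffusion. Several of these genes are known in other settings as targets of ATF4, a transcription factor that responds to amino acid shortage and to other stress, and Slc7a11 is also a known target of NRF2 (Nfe2l2).

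The promoters of the 2 genes below carry the core of the C/EBP-ATF response element, the kind of element that ATF4 binds with a C/EBP partner, and are shown because Slc7a11 had the highest fold change of the 10 genes. Sequences are from RefSeq on GRCm38.p6 and are written 5′ to 3′ on the strand of the gene. The first is the 250 bases before the RefSeq start of Slc7a11 (chr3:50443614-50443863, minus strand), in which capitals mark the letters TGATGNAA on either strand. The second runs from 170 bases before the start of Slc1a4 to just past it (chr11:20332710-20332883, minus strand), in which capitals mark a G-quadruplex pattern and then, at the start itself, TGATGNAA on the opposite strand.
Slc7a11: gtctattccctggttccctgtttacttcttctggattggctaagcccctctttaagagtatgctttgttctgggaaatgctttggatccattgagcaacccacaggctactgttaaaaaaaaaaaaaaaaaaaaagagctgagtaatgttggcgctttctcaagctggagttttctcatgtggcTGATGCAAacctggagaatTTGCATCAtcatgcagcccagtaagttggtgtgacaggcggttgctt
Slc1a4: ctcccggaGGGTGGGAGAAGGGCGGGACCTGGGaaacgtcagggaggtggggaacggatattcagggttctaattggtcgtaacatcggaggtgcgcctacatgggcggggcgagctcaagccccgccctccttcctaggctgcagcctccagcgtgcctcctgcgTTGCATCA

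Slc7a11 (chr3:49892526-50443614 on GRCm38, the assembly named mm10, minus strand) was level between 0 and 2 µM and stood far higher at 10 µM. Values are in CPM, fragment counts relative to TMM-adjusted library size. The 3 untreated libraries had 36.1, 36.8 and 35.3 CPM, the 2 µM libraries 37.6, 33.5 and 35.5 CPM and the 10 µM libraries 129 and 123 CPM. Untreated and 2 µM libraries overlapped, with a log2 fold change of -0.02 ± 0.073 (standard error of the fit, SE). Both 10 µM libraries lay above all 6 others. The 10 µM group was 3.49-fold above 0 µM (log2 1.80 ± 0.076) and 3.54-fold above 2 µM (log2 1.82 ± 0.077). Between 348 and 2115 fragments per library stand behind these values. Leaving out any 1 library kept the difference between 10 and 0 µM between 1.74 and 1.81 on the log2 scale.

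The shared heavy chain Slc3a2 (chr19:8706882-8723369, minus strand) moved in the same direction at 10 µM by much less. It had 118, 119 and 122 CPM at 0 µM, 104, 108 and 105 CPM at 2 µM, and 177 and 154 CPM at 10 µM. The 3 groups did not overlap, with the 2 µM libraries lowest and the 10 µM libraries highest. Log2 fold changes were -0.17 ± 0.071 for 2 against 0 µM, 0.47 ± 0.078 for 10 against 0 µM and 0.64 ± 0.078 for 10 against 2 µM.

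Slc7a5, the other light chain among the 10 genes (chr8:121881150-121907694, minus strand), was uneven between libraries of the same dose. Untreated libraries had 68.9, 117 and 115 CPM, 2 µM libraries 95.2, 113 and 100.1 CPM, and 10 µM libraries 197 and 122 CPM. The second 10 µM library lay only just above the highest of the other 6, and the first stood well apart from it. The log2 fold change for 10 against 0 µM was 0.66 ± 0.22, and it was 0.24 without the first 10 µM library and 0.44 without the first untreated library. The value for 10 against 2 µM was 0.64 ± 0.22, and 0.21 without the first 10 µM library.

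Taking these 2 light chains relative to their heavy chain within each library removes the scaling between libraries. Counts were divided by the length of the RefSeq-matched transcripts of each gene, and a ratio of such counts per kilobase compares RNA, not protein. The Slc7a11 to Slc3a2 ratio was 0.0770, 0.0777 and 0.0728 in the untreated libraries, 0.0903, 0.0779 and 0.0848 at 2 µM, and 0.183 and 0.201 at 10 µM. Both 10 µM ratios were more than double every other one, whereas the lowest 2 µM ratio exceeded the highest untreated one only in the third digit. The Slc7a5 to Slc3a2 ratio overlapped between all groups, with means of 0.553 ± 0.145 (SD, n = 3), 0.638 ± 0.0452 (SD, n = 3) and 0.628 ± 0.149 (SD, n = 2). Of the 2 light chains, the one for cystine was the scarcer at every dose, and the Slc7a11 to Slc7a5 ratio had means of 0.145 ± 0.0470 at 0 µM, 0.133 ± 0.0188 at 2 µM and 0.316 ± 0.0955 at 10 µM.

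**Figure D1:**
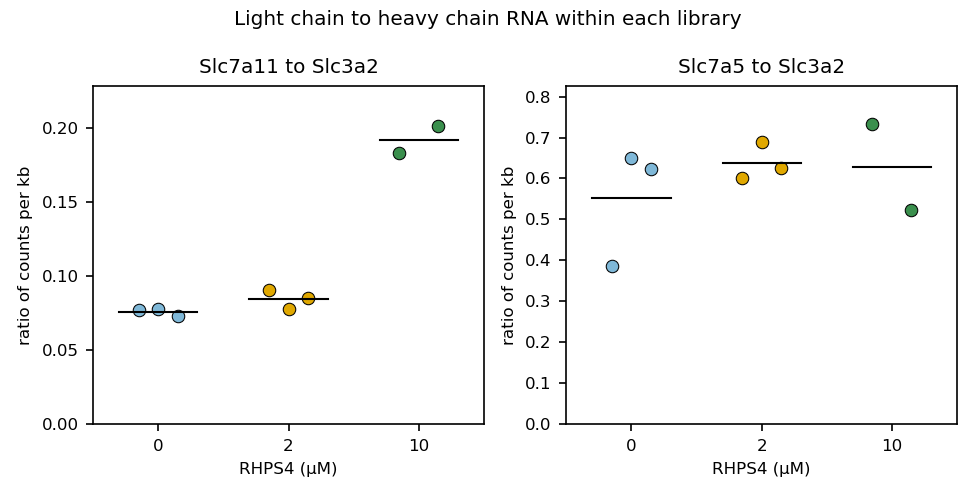
Ratio of counts per kilobase of each light chain to the heavy chain Slc3a2 within each library (points) and its mean at each dose (lines), against the RHPS4 dose in µM. The 10 µM libraries stand at 0.183 and 0.201 for Slc7a11, above all others, whereas the Slc7a5 ratio overlaps between doses.

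The glycine carrier Slc6a9 (chr4:117834506-117875198, plus strand) had the second highest fold change. It had 23.3, 31.3 and 30.2 CPM at 0 µM, 23.9, 23.1 and 23.7 CPM at 2 µM, and 71.1 and 66.6 CPM at 10 µM. The 2 µM libraries sat at the low end of the untreated range (log2 -0.28 ± 0.11), and both 10 µM libraries lay above all the rest. The 10 µM group was 2.41-fold above 0 µM (log2 1.27 ± 0.11) and 2.92-fold above 2 µM (log2 1.55 ± 0.11). Exons of Slc6a9 share 1429 bases with Ccdc24, 511 with the noncoding gene Gm17114 and 46 with B4galt2 on the opposite strand. Whether the counting used strand is not given in the sources used here, so reads from these partners could not be told apart if it did not. Ccdc24 had 10.7, 11.3 and 8.95 CPM at 0 µM, 9.15, 8.38 and 11.3 CPM at 2 µM, and 6.03 and 6.68 CPM at 10 µM, lower where Slc6a9 was higher. B4galt2 was at 48.5 ± 2.92, 53.6 ± 2.06 and 45.7 ± 3.19 CPM (mean ± SD). Gm17114 was not among the genes counted, so it has no level here.

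Of the neutral amino acid exchangers, Slc1a4 (chr11:20302180-20332713, minus strand) had 98.6, 80.5 and 86.8 CPM at 0 µM, 78.7, 79.1 and 82.2 CPM at 2 µM, and 126 and 143 CPM at 10 µM. Both 10 µM libraries were above all others, and the 2 lower doses overlapped. Against 0 µM it differed by -0.14 ± 0.086 on the log2 scale at 2 µM and by 0.60 ± 0.094 at 10 µM, and by 0.75 ± 0.094 at 10 against 2 µM. The value against 0 µM was 1.52-fold, at the edge of the 1.5-fold threshold used for calls.

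Slc1a5 (chr7:16781340-16798274, plus strand) was the gene of the 10 whose 2 µM libraries all lay above the untreated ones. It had 17.2, 20.0 and 20.6 CPM at 0 µM, 23.4, 22.9 and 23.3 CPM at 2 µM, and 29.3 and 27.4 CPM at 10 µM, so that the 3 groups stood in order of dose without overlap. Log2 fold changes were 0.26 ± 0.090 at 2 µM and 0.55 ± 0.097 at 10 µM against 0 µM, and 0.29 ± 0.098 between the doses. Within libraries, the Slc1a5 to Slc1a4 ratio per kilobase went from 0.312 ± 0.0565 at 0 µM to 0.412 ± 0.0103 at 2 µM and 0.302 ± 0.0409 at 10 µM (SD). Every 2 µM ratio lay above every untreated and every 10 µM one.

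The cationic amino acid carriers differed mainly in level. Slc7a1 (chr5:148327410-148399904, minus strand) had 89.0, 99.0 and 101 CPM at 0 µM, 84.9, 95.9 and 115 CPM at 2 µM, and 135 and 126 CPM at 10 µM. The 2 µM libraries spanned the untreated range and beyond (log2 0.03 ± 0.10), and the 10 µM libraries were above all others (log2 0.44 ± 0.11 against 0 µM). Slc7a3 (chrX:101079210-101086020, minus strand) was scarce, with 0.518, 1.98 and 1.86 CPM at 0 µM, 1.76, 1.06 and 1.96 CPM at 2 µM, and 3.23 and 3.09 CPM at 10 µM. Its 10 µM libraries were the highest, with a log2 fold change of 0.95 ± 0.33 against 0 µM that rests on 5 to 53 fragments per library. Without the first untreated library, which had 5 fragments, that log2 fold change was 0.70.

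Slc38a2 (chr15:96687392-96699730, minus strand) stood apart from the other 9 genes. It had 323, 378 and 384 CPM at 0 µM, 291, 315 and 357 CPM at 2 µM, and 329 and 313 CPM at 10 µM, and the groups overlapped in each comparison. Its log2 fold change for 10 against 0 µM was -0.17 ± 0.10, and with total counts as the only scaling it was 0.04. That scaling moved the median of all genes by 0.21 on the log2 scale in this comparison, and relative to this shift the gene was again below zero. Slc43a1 (chr2:84838850-84863594, plus strand) was at 1.55, 1.73 and 1.58 CPM at 0 µM, 1.67, 1.46 and 1.54 CPM at 2 µM, and 1.83 and 1.72 CPM at 10 µM. Untreated and 10 µM libraries overlapped (log2 0.12 ± 0.21), with 15 to 40 fragments per library.

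**Figure D2:**
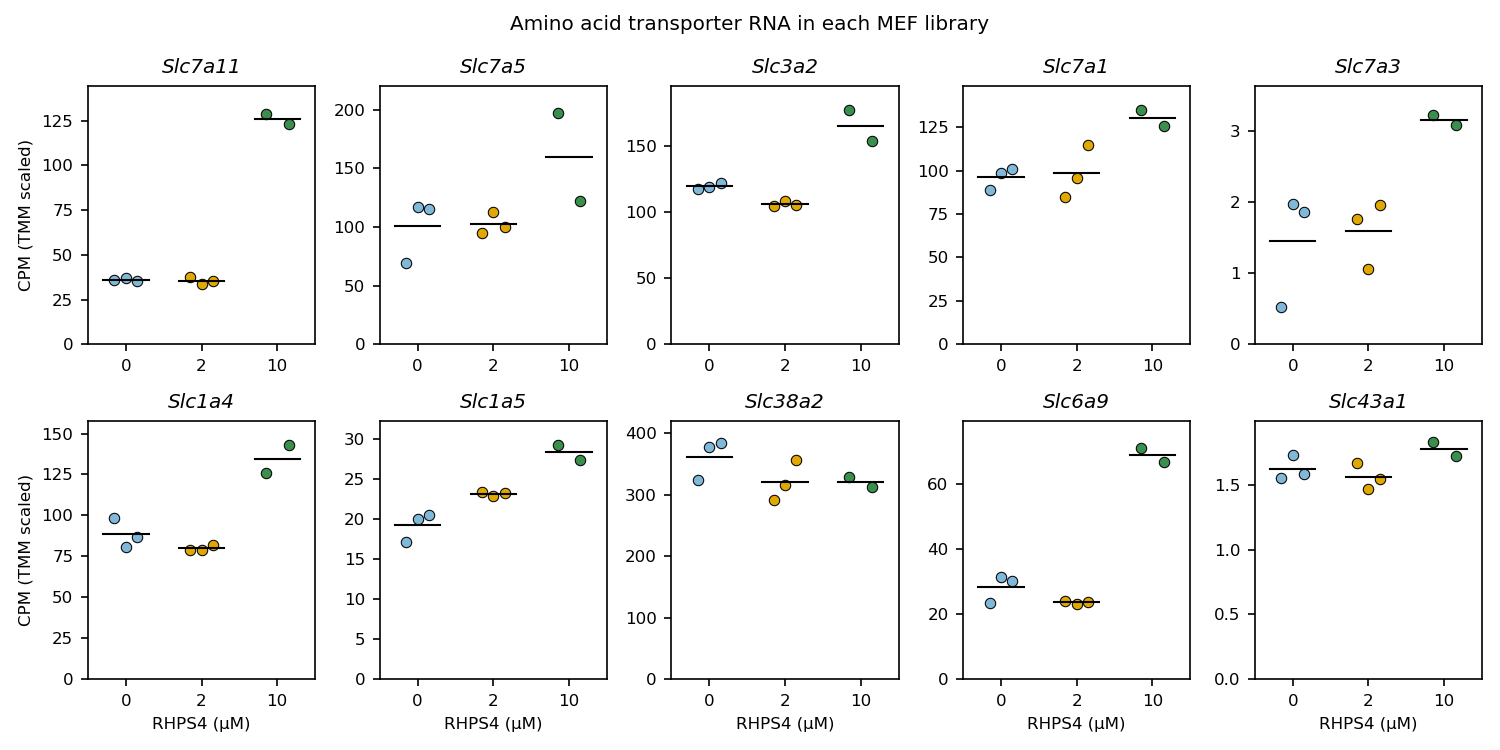
TMM-scaled CPM of each transporter (1 panel a gene, vertical axes from 0) in every library, against the RHPS4 dose in µM, with points for libraries and lines for means. The 2 libraries at 10 µM lie above all untreated ones in 8 panels, and Slc38a2 and Slc43a1 are the exceptions.

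Set side by side, the 10 genes showed little at 2 µM and a spread of differences at 10 µM. Comparisons against 0 µM share the untreated libraries and are given only beside each other. A gene was called when its adjusted p was under 0.01 and its fold change over 1.5 in edgeR's quasi-likelihood test over all genes tested. At 2 µM against 0 µM, 0 of the 10 genes were called, where 0.497% of the 14296 genes tested were called in either direction (0.119% higher and 0.378% lower). In 1 gene (Slc1a5) all 2 µM libraries were higher and in 1 (Slc3a2) all were lower, against 12.7% and 12.9% of all genes. The median log2 fold change was -0.04 over the 10 genes and -0.01 over all genes.

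At 10 µM against 0 µM, 3 genes were called, all higher (Slc7a11, Slc6a9 and Slc1a4), where 3.09% of all genes were called (1.95% higher and 1.14% lower). In 8 genes both 10 µM libraries lay above all untreated ones, against 22.9% of all genes, and in 0 genes both lay below them, against 20.0%. The median log2 fold change was 0.58, and 0.02 over all genes. At 10 against 2 µM, 4 genes were called higher (those 3 and Slc3a2), where 5.51% of all genes were called (3.92% higher and 1.59% lower). In 9 genes both 10 µM libraries were above all 2 µM ones, against 27.0% of all genes, and in 0 genes below them, against 24.9%. Here the median was 0.64, and 0.03 over all genes. Since the genes were taken with these contrasts known, nothing is read from these counts.

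The calls of Slc7a11 and Slc6a9 held without any 1 library. That of Slc1a4 at 10 against 0 µM was lost without the second or the third untreated library or the second 10 µM library, where its log2 fold change ranged down to 0.48. Slc3a2 was no longer called at 10 against 2 µM without the first 10 µM library (log2 0.50).

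**Figure D3:**
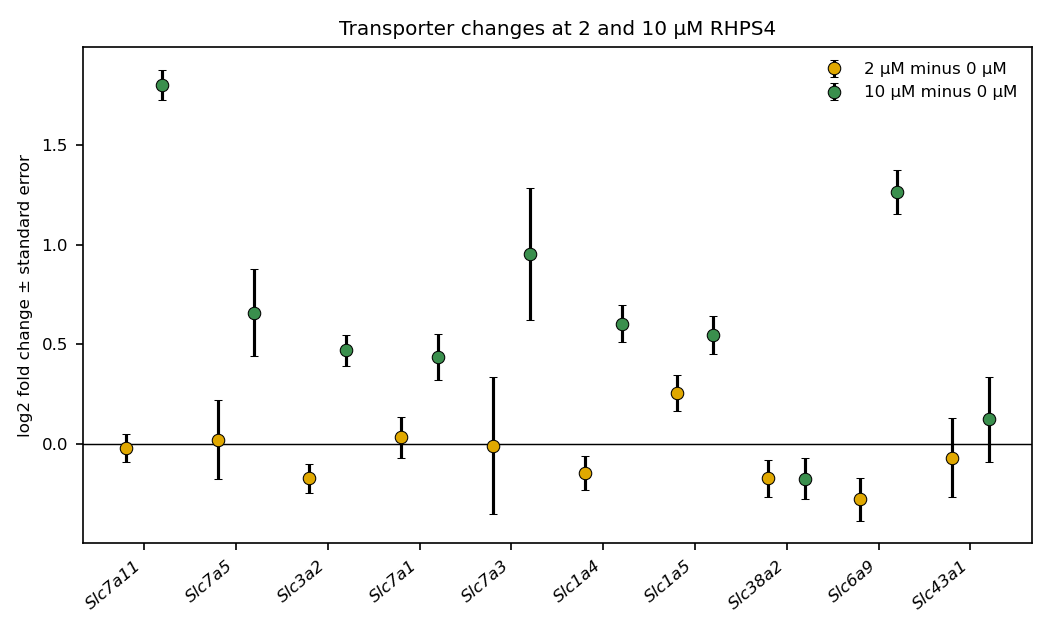
Log2 fold change of each transporter at 2 µM and at 10 µM against 0 µM, with bars for the standard error of the fit. Slc7a11 (1.80) and Slc6a9 (1.27) lead at 10 µM, and 2 µM values lie between -0.28 and 0.26.

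Per kilobase of transcript, the order of levels changed with the dose. At 0 µM Slc38a2 was highest with 77.6 ± 7.21 CPM per kilobase (SD, n = 3), followed by Slc3a2 with 51.5 ± 0.902 and Slc7a5 with 28.6 ± 7.77, whose libraries overlapped those of Slc1a4 with 22.6 ± 2.34. Slc7a1 came next with 13.4 ± 0.883, then Slc6a9 with 8.13 ± 1.25 and Slc1a5 with 6.96 ± 0.651, which overlapped each other, and Slc7a11 with 3.91 ± 0.0833. The lowest pair, Slc43a1 with 0.642 ± 0.0375 and Slc7a3 with 0.631 ± 0.353, also overlapped. At 2 µM the same 5 genes led in the same order, and Slc1a5 with 8.39 ± 0.0845 stood above Slc6a9 with 6.77 ± 0.121.

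At 10 µM Slc3a2 with 71.4 ± 7.23 and Slc38a2 with 68.9 ± 2.40 CPM per kilobase (SD, n = 2) overlapped at the top, and so did Slc7a5 with 45.4 ± 15.2 and Slc1a4 with 34.2 ± 3.05 below them. Slc6a9 reached 19.8 ± 0.899, above Slc7a1 with 18.2 ± 0.949, and Slc7a11 with 13.6 ± 0.462 passed Slc1a5 with 10.3 ± 0.482. Slc7a3 with 1.37 ± 0.0437 and Slc43a1 with 0.703 ± 0.0294 stayed lowest. Summed over the 10 genes the level was 214 ± 16.6 CPM per kilobase at 0 µM, 198 ± 10.3 at 2 µM and 284 ± 24.6 at 10 µM. Slc38a2 made up 36.2% ± 0.577, 34.7% ± 1.87 and 24.3% ± 1.26 of that sum, and Slc7a11 1.83% ± 0.157, 1.95% ± 0.195 and 4.82% ± 0.255. These levels, ranks and shares depend on the length used, that of the RefSeq-matched transcripts. Per kilobase of all annotated exons, means at 10 µM were 46.9 for Slc3a2, 43.1 for Slc7a5, 36.3 for Slc38a2 and 34.2 for Slc1a4. By that length Slc7a5 stood above Slc38a2. At 0 µM it gave 0.384 for Slc7a3 and 0.284 for Slc43a1, in the reverse order.

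Promoter sequences were compared with the values above as a description, over a window of 250 bases before and 50 after each RefSeq start. The RefSeq table held 10 windows for 7 of the genes, and Slc7a3, Slc7a5 and Slc1a5 had none. The first bases after the start were found in a GENCODE transcript of the gene for every window but that of Slc3a2 (chr19:8713848-8714147). That window may therefore not be the promoter of Slc3a2. TGATGNAA, searched on both strands, was in the windows of Slc7a11 and Slc1a4 alone, and in 3.97% of the 32851 windows of the table (2.35% of the windows of genes tested here). Slc7a11 held it at 2 places, from 66 to 59 bases before the start on the strand of the gene and from 47 to 40 bases before it on the opposite strand. Both genes were among the 3 called at 10 µM, and the third, Slc6a9, had no match in its 3 windows. The genes were chosen with these values known, and Slc7a3, Slc7a5 and Slc1a5 had no window, so nothing is read from this overlap.

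TGACNNNGC, the core of the antioxidant response element that NRF2 binds, was in 5 windows of 4 genes (Slc38a2, Slc43a1, Slc7a1 and 2 windows of Slc6a9) and in 12.4% of all windows (14.0% for tested genes). The E-box CACGTG was in Slc43a1 alone and in 7.15% of all windows (9.56% for tested genes). A match is only a run of letters, and a window without a match says nothing about the factor.

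Because RHPS4 binds G4 structures, the pattern of 4 runs of at least 3 G with 1 to 7 bases between them was also searched on both strands. It was in 4 windows of 3 genes, Slc1a4, Slc38a2 and 2 starts of Slc6a9, and in 18.6% of all windows (27.3% for tested genes). The matches lie on the strand of the gene and are shown in capitals with 10 bases on either side, for Slc38a2 (chr15:96699801-96699843, minus strand), the first start of Slc6a9 (chr4:117835166-117835229, plus strand) and the second (chr4:117849236-117849276, plus strand). Slc38a2 had a second match further from its start. The genes with the pattern include 2 that were called higher at 10 µM and 1 whose libraries overlapped at every dose, and Slc7a11 had no match in its window. For the same reasons nothing is read from this, and an effect of the pattern was not tested.
Slc38a2: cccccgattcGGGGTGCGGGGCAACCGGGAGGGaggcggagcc
Slc6a9, first start: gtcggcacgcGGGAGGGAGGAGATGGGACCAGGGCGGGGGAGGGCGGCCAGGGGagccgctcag
Slc6a9, second start: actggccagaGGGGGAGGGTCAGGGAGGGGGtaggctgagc

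**Figure D4:**
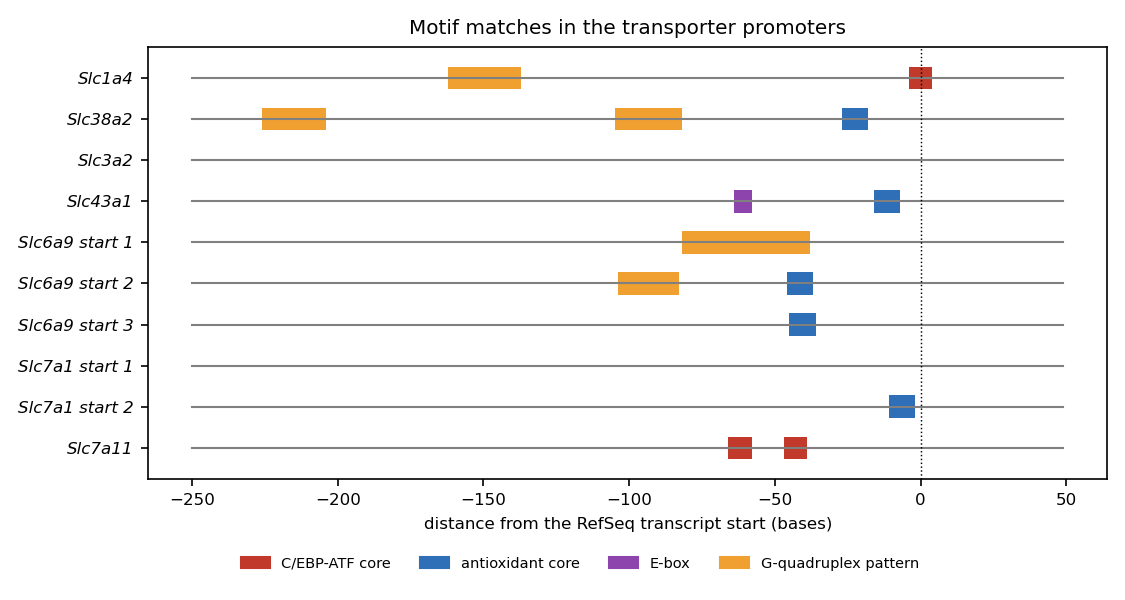
Positions of motif matches in the 10 RefSeq promoter windows of 7 transporter genes, in bases from the transcript start at 0, with 1 line a window and colours for the 4 motifs. The C/EBP-ATF core is in the Slc7a11 and Slc1a4 windows, and the G-quadruplex pattern in Slc1a4, Slc38a2 and Slc6a9. The Slc3a2 window holds no match, but its start was not found in a GENCODE transcript of the gene.

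Other amino acid transporters were tested as a list of 64 genes. The 10 genes left out of it were chosen by a rule that used their values. The list, too, was drawn up with earlier results of these data known. Its shares are therefore not independent of that choice and are given beside those of all genes. Of the 64 genes, 45 passed the filter, and the 19 others had at most 18 fragments in any library. At 2 µM against 0 µM, edgeR's quasi-likelihood test called 0, with 7 at an unadjusted p under 0.05 (2 higher and 5 lower), and DESeq2 also called 0. Those 7 are 15.6% of the list, where 21.3% of all genes were under that p (10.1% higher and 11.2% lower). At 10 µM against 0 µM it called 1, Slc38a7, higher, with 11 at an unadjusted p under 0.05 (8 higher and 3 lower). The call is 2.22% of the list, against 3.09% of all genes, and the 11 genes are 24.4%, against 29.4% of all genes (14.8% higher and 14.6% lower). At 10 against 2 µM 3 were called, all higher, and 23 were at an unadjusted p under 0.05 (12 higher and 11 lower). These are 6.67% and 51.1% of the list, against 5.51% and 36.5% of all genes (18.2% higher and 18.3% lower at the unadjusted p). The median log2 fold change over the 45 genes was 0.06 at 10 against 0 µM and 0.13 at 10 against 2 µM, beside 0.02 and 0.03 over all genes.

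The called genes were among the 12 that the list grouped as carriers of lysosomes and other inner membranes, all of which were tested. Where each carrier sits in these cells was not measured. Slc38a7 (chr8:95835920-95853539), which exports glutamine from lysosomes, had 14.8, 16.3 and 16.1 CPM at 0 µM, 11.9, 12.4 and 14.1 CPM at 2 µM, and 28.6 and 25.4 CPM at 10 µM. The 3 groups did not overlap, with 2 µM lowest. The log2 fold change was 0.78 ± 0.10 at 10 against 0 µM (edgeR, adjusted p = 0.00078) and 1.07 ± 0.11 at 10 against 2 µM (adjusted p = 7.7e-05). Without the first 10 µM library the difference from 0 µM was 0.65 and no longer called.

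At 10 against 2 µM the calls also took in Slc38a6 (chr12:73286779-73354049) and Ctns (chr11:73183596-73199042), the cystine exporter of lysosomes. Slc38a6, a relative of Slc38a7, was at 8.04 ± 1.04, 6.10 ± 1.32 and 11.2 ± 1.17 CPM at 0, 2 and 10 µM and differed by 0.86 ± 0.17 on the log2 scale (edgeR, adjusted p = 0.0055). Ctns had 16.8, 18.5 and 17.0 CPM at 0 µM, 12.7, 13.5 and 14.8 CPM at 2 µM, and 22.1 and 19.8 CPM at 10 µM, and differed by 0.61 ± 0.11 between the 2 treated doses (edgeR, adjusted p = 0.0024). The 2 µM libraries of Ctns were the lowest of the 3 groups. Leaving out either 10 µM library, or the first or second 2 µM library, ended the calls of both genes. That of Slc38a6 was also lost without the second untreated library, and that of Ctns without the first.

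Of the other carriers of the plasma membrane, 20 of 37 were tested and 0 were called by edgeR at 10 against 0 µM, with 4 at an unadjusted p under 0.05, whereas DESeq2 called 1, Slc38a4, lower. In edgeR, Slc38a4, which carries neutral and cationic amino acids, had a log2 fold change of -0.60 ± 0.13 (adjusted p = 0.010). Of the mitochondrial carriers 13 of 15 were tested, and 0 were called by edgeR or DESeq2 in any comparison. At 10 against 0 µM, 1 was at an unadjusted p under 0.05 in edgeR (7.69%, against 29.4% of all genes). It was Slc25a40 (log2 0.47 ± 0.082, edgeR adjusted p = 0.0039), short of the fold threshold. At 10 against 2 µM there were 8 (61.5%, against 36.5% of all genes), of which 2 were higher and 6 lower. At 2 against 0 µM there were 3 (23.1%, against 21.3% of all genes). Slc25a40 is tied to glutathione import into mitochondria. Slc25a39, also of this list, had log2 0.17 ± 0.092 at 10 against 0 µM (edgeR, adjusted p = 0.26), with overlapping libraries.

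**Figure D5:**
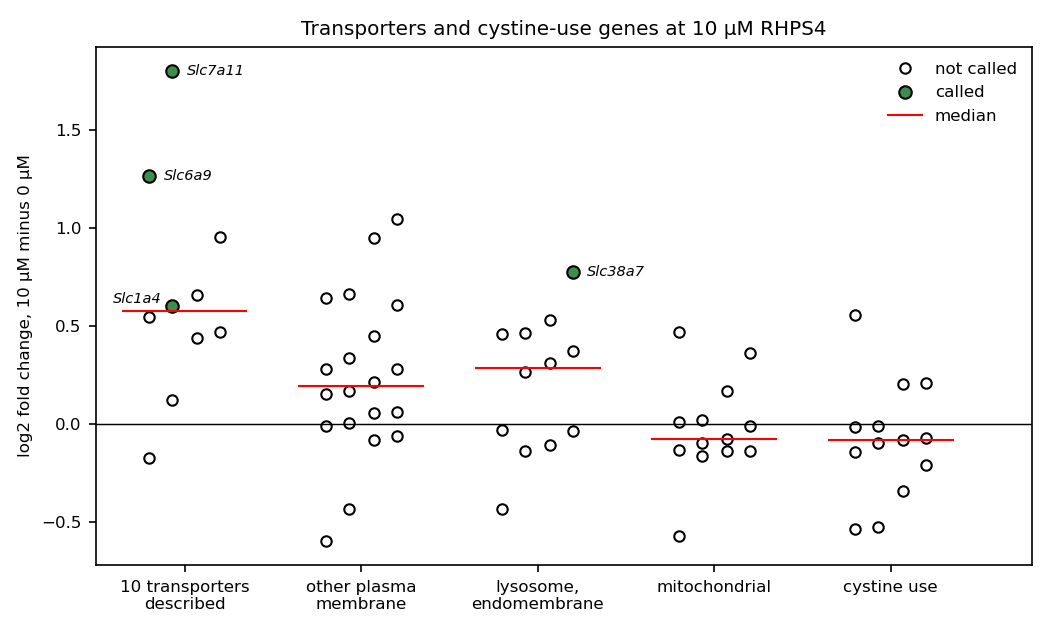
Log2 fold change at 10 µM against 0 µM for each tested gene of 5 groups, with filled points for called genes and lines for group medians. Slc38a7 (0.78) is the called gene outside the 10 transporters described, whose own points are a description.

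The genes around cystine use, 13 regulators of Slc7a11, proteins tied to it and enzymes of glutathione and thioredoxin reduction, were also tested as a list, and all passed the filter. At 2 against 0 µM, 0 were called by edgeR or DESeq2. In edgeR 5 were at an unadjusted p under 0.05 (38.5%, against 21.3% of all genes), of which 4 were higher and 1 lower. The median log2 fold change at 2 µM was 0.12, beside -0.01 over all genes. At 10 against 0 µM, 0 were called by either tool, where 3.09% of all genes were called by edgeR. At an unadjusted p under 0.05 there were 6 (46.2%, against 29.4% of all genes), of which 2 were higher and 4 lower. The median log2 fold change was -0.08, beside 0.02 over all genes.

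Atf4, the stress-responsive transcription factor, was highest at 10 µM, with 342, 284 and 279.5 CPM at 0 µM, 362, 334 and 339 CPM at 2 µM, and 449 and 438 CPM at 10 µM. Its log2 fold change for 10 against 0 µM was 0.56 ± 0.094 (edgeR, adjusted p = 0.0033), short of the 1.5-fold threshold, and it was called without the first untreated library. Nfe2l2 differed by 0.20 ± 0.079 (adjusted p = 0.11). At 10 against 2 µM edgeR called 1 gene of the list (7.69%, against 5.51% of all genes). At an unadjusted p under 0.05 there were 7 (53.8%, against 36.5% of all genes), of which 1 was higher and 6 lower. The called gene was Gsr, the enzyme that returns oxidized glutathione to its reduced form, which fell. Gsr had 111, 103 and 112 CPM at 0 µM, 127, 121 and 129 CPM at 2 µM, and 75.1 and 74.2 CPM at 10 µM. The 10 µM group differed by -0.75 ± 0.076 from 2 µM on the log2 scale (edgeR, adjusted p = 8.3e-05) and by -0.54 ± 0.076 from 0 µM (adjusted p = 0.0010), where it was called without the second untreated library.

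None of the following members of the list was called at 10 against 0 µM. The modifier subunit of the first enzyme of glutathione synthesis, Gclm, had log2 -0.53 ± 0.11 (edgeR, adjusted p = 0.012), and its catalytic partner Gclc -0.10 ± 0.084 (adjusted p = 0.48). Cd44, an adhesion receptor known to stabilize xCT, had log2 -0.34 ± 0.072 (adjusted p = 0.010). Gpx4, which uses glutathione to reduce lipid peroxides, had 0.21 ± 0.12 (adjusted p = 0.28), and Txnrd1, the cytosolic thioredoxin reductase, -0.14 ± 0.070 (adjusted p = 0.20).

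Over the 8 libraries, the genes whose log2 CPM was most like that of Slc7a11, among 12307 genes with a mean of at least 1 CPM, were Gpt2 (Pearson r = 0.997), Pycr1 (0.994), Aldh18a1 (0.993), Nmi (0.993) and Otub2 (0.991). The points share libraries, and the 2 libraries at 10 µM stand apart from the other 6, so r mostly describes that step. Gpt2, a mitochondrial alanine aminotransferase, was at 69.0 ± 1.36, 64.9 ± 4.31 and 229 ± 10.0 CPM at 0, 2 and 10 µM. Within the 10 transporters, r with Slc7a11 was 0.970 for Slc6a9, 0.936 for Slc3a2 and 0.933 for Slc1a4, between 0.673 and 0.824 for 5 others, and -0.273 for Slc38a2.

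Total counts per library ran from 10455965 to 26688121, and 3 counts, the floor of detection for counting error alone, were worth between 0.112 and 0.287 CPM. All 10 genes had more than 3 counts in every library. The share of counts from mtDNA was 13.2 to 14.4% at 0 µM, 7.40 to 8.26% at 2 µM and 5.33 to 6.32% at 10 µM, and with scaling over nuclear genes only the median of the 10 genes at 10 against 0 µM was again 0.58. The summed level of 8 fibroblast markers was 12573 to 13108 CPM at 0 µM, 11304 to 11658 CPM at 2 µM and 10991 to 11577 CPM at 10 µM, with Pdgfrb called lower at 10 µM. Summed markers of macrophages (6.22 to 10.4 CPM over all libraries), endothelium (3.25 to 5.46 CPM) and epithelium (2.38 to 4.05 CPM) were low at every dose. The 4 neural markers summed to 41.6 to 54.7 CPM, but single genes of that list ranged from 0.163 to 52.1 CPM, so the sum is uneven. None of the markers outside the fibroblast list was called, and none was at 0 in any library. The part of these shifts in the transporter values was not tested, and fewer cells of a type and less RNA per cell cannot be told apart in such bulk samples.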

How the data were processed

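Total RNA of MEF cells was depleted of nuclear ribosomal RNA and made into 8 stranded libraries. Per the submitters' processing notes and the study's methods, the authors trimmed reads (FastQC, Trim Galore, cutadapt), aligned them to mm10 with STAR 2.5.2a and used featureCounts to count fragments with a unique position in each gene. They deposited these raw counts without normalization. The annotation and strand setting are not given in the sources used here.

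Counts of all 8 libraries were fitted in R 4.3.3 with edgeR 4.0.16 (TMM, filterByExpr, glmQLFit, glmQLFTest, dose as factor, Benjamini-Hochberg over the 14296 genes tested). A call needed adjusted p under 0.01 and fold change over 1.5, the thresholds of the study. The SE was the log2 fold change divided by the square root of F. The procedure was tested on simulated data. Ratios of counts per kilobase were taken without an added count. Correlations used log2 CPM with a prior count of 2. Positions and transcript lengths came from GENCODE on GRCm38, and promoters from RefSeq on GRCm38.p6. PCR copies are not independent molecules, so floors cover counting error alone. No replicate pair agreed within sampling noise.

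Named were every transporter of the set, list genes called in any comparison, genes of the cystine list by values, and the 5 genes most like Slc7a11. Slc38a4, Slc25a40 and Slc25a39 were named after their values were seen. The members and lists were chosen with earlier results of these data known. Alternatives were RLE scaling, TMM over nuclear genes, total counts, no filter, DESeq2 1.42.0, a minimum of 10 counts in each library, only the 2 groups compared, a replicate block and each library left out.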

Additional observations from a re-analysis of the deposited data

How the results depend on the processing

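Total counts as the only scaling gave the 10 transporters a median log2 fold change of 0.79 at 10 against 0 µM (0.58 as reported) with 6 genes called, and 0.77 at 10 against 2 µM (0.64 as reported). It also gave 1 called cystine use gene, Atf4, at 10 against 0 µM, and turned Slc7a11 at 2 µM to 0.06 and Slc38a2 at 10 µM to 0.04. It shifted the median of all genes by 0.08, 0.21 and 0.13 at 2 against 0, 10 against 0 and 10 against 2 µM. Other transporters called at 10 against 0 µM numbered 2, in place of 1 (Slc38a4 lower beside Slc38a7, or Slc25a40 higher under total counts), with DESeq2, RLE normalization, no filter on low counts, total counts only and TMM without mtDNA features. Leaving out 1 library gave medians of 0.41 to 0.60 at 10 against 0 µM and 0.40 to 0.68 at 10 against 2 µM for the 10 transporters. It gave 0 to 2 other transporters called at 10 against 0 µM (0 without the first 10 µM library) and 1 to 3 at 10 against 2 µM. It gave 0 to 2 cystine use genes called at 10 against 0 µM (2, Atf4 and Gclm, without the first untreated library). Slc1a4 at 10 against 0 µM was also not called with no filter, with DESeq2 or with only the 2 groups compared, and Ctns at 10 against 2 µM not with no filter (0.57) or with DESeq2 (0.58). Apart from the fewer libraries or genes that these settings use, the cause was not tested.

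Replicate numbers in the labels are shared between doses. Deviations of same-numbered libraries correlated at 0.0845 to 0.199 between 0 and 2 µM, -0.145 to -0.105 between 0 and 10 µM and -0.0610 to -0.0212 between 2 and 10 µM. With 2 libraries at 10 µM, the deviations of 1 mirror those of the other, so the values with that dose cannot decide on pairing. The labels do not name pairs, and the numbers were not taken as pairs. Between 0 and 2 µM every library correlated best with its own number, which is a hint from the data and not from the design. With the replicate number as a block, 3 of the 10 transporters, 1 other transporter and 0 cystine use genes were called at 10 against 0 µM, 4, 3 and 1 at 10 against 2 µM, and 0 of each at 2 µM, the counts reported without the block. The transporters' medians were -0.05, 0.59 and 0.67. Genes with few fragments, such as Slc7a3 and Slc43a1, had the widest SEs, and 2 libraries at 10 µM limit every comparison with that dose.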
